A study of Arabidopsis thaliana with 3 samples.

Results

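PDF1.2 and PDF1.4 are plant defensin genes of Arabidopsis thaliana whose signals on these arrays peaked at different times of recovery from freezing. They were chosen by symbol and for this timing, so their own signals and ratios on the 3 arrays are given as a description, with no test. Each gene was matched to 1 probe set that the platform's annotation assigns to a single gene, which makes 2 of 13356 genes named in this way; such probe sets number 13513 of 22746. Material was all aerial parts of Col-0, the reference accession, with no mutation or transgene in any group, and each group was 1 Affymetrix ATH1 array. Plants grew at 20 °C with 9 h of light and 15 h of darkness a day and then spent 11 days at 4 °C in the same cycle, which all 3 groups share. The cold-acclimated plants, the control, were collected at hour 5 of the light period without freezing. The remaining plants went into the freezer when a light period ended and stayed there for 20 h; the labels print its temperature as 6.0 °C, with no sign. They then stood at 20 °C without light for 3 h or for 24 h. Counted through this schedule, the 3 h harvest fell at hour 8 of the daily cycle, 23 h after the last light, and the 24 h harvest at hour 5, 44 h after it. Freezing, warming and darkness differ together between the control and both recovery arrays and cannot be told apart. Time of day differs from the control as well for the 3 h array. Between the 3 h and 24 h arrays, recovery time, hours without light and time of day differ together and cannot be told apart either. The sources used here do not say how many plants made up an array.

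Plant defensins are small secreted peptides folded around disulfide bonds, and many slow the growth of fungi. In Arabidopsis leaves PDF1.2 is the standard marker of the branch of defence that needs jasmonate and ethylene together. In that branch, jasmonate perception removes JAZ repressors, EIN3-type factors act downstream of ethylene, and ERF-family activators switch on defensin genes. A second jasmonate branch works through MYC2, MYC3 and MYC4 and drives wound responses, and salicylate signalling generally opposes PDF1.2 expression. PDF1.4 belongs to the same defensin class by name and sequence but is much less studied.

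PDF1.2 (AT5G44420) had signals of 719.5 in the cold-acclimated control, 3936 at 3 h and 803 at 24 h. All 3 values lay well above 16.2, the floor used for dim signals, and the 3 h array alone stood high. Signals are linear brightness values scaled to a common trimmed mean of 100 on each array, with no unit of their own. The 3 h signal was 5.47-fold that of the cold-acclimated array, a log2 ratio of 2.45, and the 24 h signal was 4.90-fold lower than that at 3 h (-2.29). At 24 h PDF1.2 lay within 2-fold of the cold-acclimated array, at 1.12-fold (0.16). With 1 array per group the spread between plants is unknown. The only error these arrays give is the disagreement between 2 probe sets of the same gene, with an SD per log2 ratio of 0.33 for 3 h and 0.40 for 24 h against the control (76 genes each); for 24 h over 3 h it was 0.35 (75 genes). This SD covers only part of the technical error, because both probe sets were read on the same arrays and share any error of a whole array. It was taken from pairs with all signals at or above the floor. The members' ratios were not tested against it.

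PDF1.4 (AT1G19610) had signals of 28.5 in the cold-acclimated control, 23.1 at 3 h and 989.5 at 24 h. The first 2 values lay near the floor of 16.2, the 30th percentile of all Arabidopsis signals, below which values were set to the floor. The 24 h array alone was high. Against the cold-acclimated array the 24 h signal was 34.7-fold higher (log2 ratio 5.12) and the 3 h signal was 0.808-fold (-0.31). Against the 3 h array it was 42.9-fold higher (5.42). Because the low side of these ratios is dim, their size depends on the floor. With the floor at the 45th percentile, 33.3, both low arrays lay below it, and the log2 ratio at 24 h was 4.89 against either of them.

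Among the features measured, meaning at or above the floor on at least 1 array of a pair, 204 of 16769 probe sets had a higher ratio than PDF1.2 at 3 h against the control. In the comparison of 24 h with 3 h, 195 of 16968 had a lower one. PDF1.4 had the larger extremes: 4 probe sets of 16964 exceeded its ratio at 24 h against the control, and 4 of 16968 exceeded it at 24 h against 3 h. At 3 h against the control 1 of the 2 defensins was at least 2-fold higher and 0 were lower, where 6.11% of all measured probe sets were higher and 3.95% lower. At 24 h against the control 1 was higher and 0 lower, beside 8.57% and 8.48% of all. At 24 h against 3 h 1 was higher and 1 lower, beside 10.7% and 8.67%. These contrasts chose the genes, so nothing is read from the members' shares.

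The gap between the genes' log2 ratios is the same under any scaling that multiplies each array by 1 number. PDF1.4 minus PDF1.2 was -2.76 for 3 h and 4.96 for 24 h, each against the control, and 7.72 for the 24 h over the 3 h array. Loess and quantile normalization, which depend on the signal, gave -2.74 and -2.67 for the first gap, 4.79 and 5.00 for the second and 7.47 and 7.68 for the third. In order of signal, PDF1.2 was highest at 3 h, then at 24 h and then in the cold-acclimated control, and PDF1.4 was highest at 24 h, then in the cold-acclimated control and then at 3 h. With 1 array each, it is unknown whether the lower 2 arrays of either gene differ by more than the spread between plants.

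**Figure D1:**
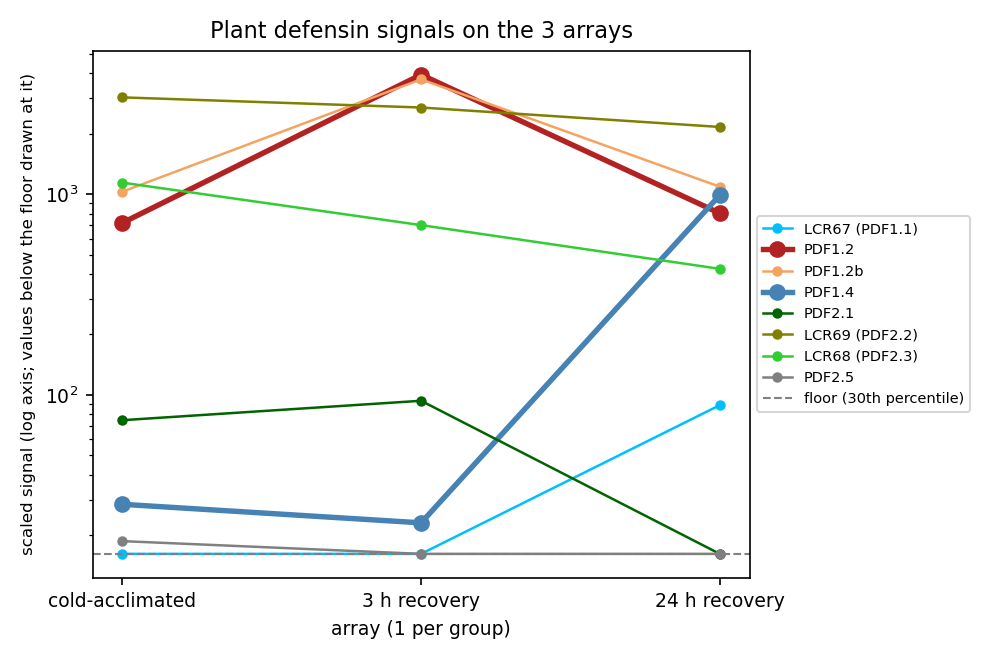
Scaled signal, on a log axis, of the 8 defensin family genes measured on at least 1 array, for the cold-acclimated, 3 h and 24 h arrays (1 array each, so no error bars). The thick lines show PDF1.2 at 719.5, 3936 and 803 and PDF1.4 at 28.5, 23.1 and 989.5; the dashed line is the floor of 16.2, and heights of different genes are not comparable because each has its own probes.

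Facts of the arrays that touch these values are few. Median signals of the arrays were 42.6, 39.5 and 42.8 in time order, starting with the cold-acclimated one, and 69.6% to 70.5% of Arabidopsis probe sets per array lay at or above the floor. The control transcripts that are added at hybridization stood higher on both recovery arrays than on the cold-acclimated one. They were 1.70-fold higher on the 3 h array and 1.43-fold higher on the 24 h array. Scaling to them made the log2 ratios of PDF1.2 against the control 1.69 and -0.36 for 3 h and 24 h, and those of PDF1.4 -1.07 and 4.60, so that PDF1.4 then passed 2-fold lower at 3 h. Whether these transcripts or the bulk of the plant signals give the truer scale was not tested. The labelled tissue could be checked against 1 of 10 leaf markers, the light-harvesting gene LHCB4.2, at 1966, 1331 and 4154 on the 3 arrays in time order, and against the guard cell factor FMA at 46.7, 38.8 and 42.8. No flower, root, seed or vascular marker was named on the annotation. In whole aerial parts, a change in which cells are present and a change of RNA per cell cannot be told apart.

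**Figure D2:**
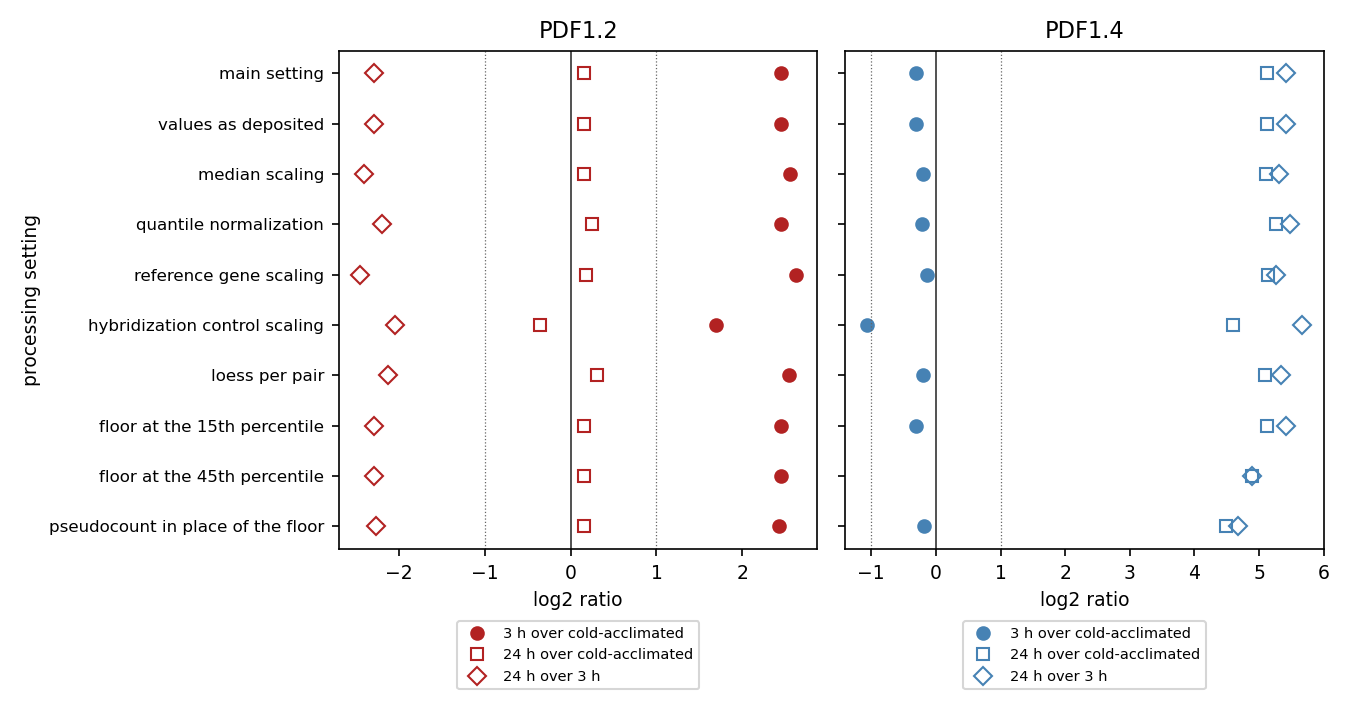
Log2 ratios of PDF1.2 (left) and PDF1.4 (right) under the main setting and 9 others, with 3 h over cold-acclimated as filled circles, 24 h over cold-acclimated as open squares and 24 h over 3 h as open diamonds; dotted lines mark 2-fold. PDF1.2 ran from 1.69 to 2.62 at 3 h and from -0.36 to 0.31 at 24 h, and PDF1.4 from 4.49 to 5.26 at 24 h; PDF1.4 has no 3 h point with the floor at the 45th percentile, where both signals lay below it.

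The wider defensin family went several ways. Of 15 family genes written down, 12 were on the annotation, 5 of these lay above the floor on all 3 arrays, 3 on 1 or 2 arrays and 4 on none. The counts here include PDF1.2 and PDF1.4. At 3 h 2 of 7 measured genes passed 2-fold higher and 0 lower, beside 6.11% and 3.95% of all measured probe sets; their median log2 ratio was -0.17, where all probe sets had -0.13. At 24 h against the control 2 of 8 were higher and 2 lower, beside 8.57% and 8.48% of all, with a median of -0.06 beside 0.01. At 24 h against 3 h 2 of 7 were higher and 3 lower, beside 10.7% and 8.67% of all, with a median of -0.72 beside 0.07. The 2 genes higher at 3 h were PDF1.2 and its near-identical copy PDF1.2b, whose signals are not independent. Both also count among the 3 lower at 24 h against 3 h. In each comparison the counts include a gene chosen for its timing, so the shares are not read as a property of the family.

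PDF1.2b (AT2G26020), a near-identical copy of PDF1.2, followed it closely. Its signals were 1029 in the cold-acclimated control, 3731 at 3 h and 1089 at 24 h, again with the 3 h array alone high. Its log2 ratios to the control were 1.86 for 3 h and 0.08 for 24 h, and that of 24 h against 3 h was -1.78. This probe set carries the suffix for probes that also match other sequences, and copies so alike can share labelled RNA, so the signals of PDF1.2 and PDF1.2b are not independent and cannot be assigned to 1 gene with certainty. The log2 ratios of PDF1.2 exceeded those of PDF1.2b by 0.59 for 3 h and by 0.08 for 24 h, each against the control. In RefSeq's order of protein-coding genes on assembly TAIR10.1, PDF1.2c lies directly beside PDF1.2 and PDF1.3 directly beside PDF1.2b, and neither has a named probe set here.

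PDF1.1 (LCR67 in RefSeq, AT1G75830), known from seeds, was the only other family gene that was higher at 24 h by 2-fold or more. Its signals were 0.387 in the cold-acclimated control, 10.8 at 3 h and 88.9 at 24 h. The first 2 lie below the floor, so it was at least 5.50-fold higher at 24 h than on either other array. It was at or above the floor on the 24 h array alone. With the floor at the 15th percentile it also passed 2-fold at 3 h (log2 ratio 1.34), where PDF1.4 did not. Under all 10 settings it was at least 2-fold higher at 24 h, with log2 ratios against the control from 1.42 to 4.38.

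In the PDF2 class 2 of 4 measured genes were lower at 24 h than on the cold-acclimated array by 2-fold or more, and 0 were higher, beside 8.48% lower and 8.57% higher among all measured probe sets. PDF2.1 (AT2G02120) was at 74.8 in the cold-acclimated control, 93.5 at 3 h and 12.7, below the floor, at 24 h. At 24 h it was lower by at least 4.63-fold than in the control and by at least 5.79-fold than at 3 h, while the 3 h and cold-acclimated arrays lay within 2-fold. PDF2.3 (LCR68, AT2G02130) was at 1141, 701 and 425 in time order. Its log2 ratios to the control were -0.70 for 3 h and -1.43 for 24 h; with scaling to the hybridization controls that for 3 h was -1.47, past 2-fold lower. PDF2.2 (LCR69, AT2G02100) was at 3035, 2702 and 2162 and within 2-fold throughout, except that its log2 ratio at 24 h against the control was -1.01 with scaling to the hybridization controls. PDF2.5 was at 18.7, 11.1 and 14.9 and passed the floor on the cold-acclimated array alone. PDF2.1 and PDF2.3 lie next to each other in RefSeq's gene order, with PDF2.6 beside them and PDF2.2 separated by 1 gene, and these neighbours thus had log2 ratios at 24 h from -2.21 to -0.49 where measured. PDF2.4 (LCR66), PDF2.6 (LCR72), LCR80 and LCR59 lay below the floor on all arrays, their highest signals being 14.5, 12.8, 1.45 and 11.4.

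Beside the defensins stand other small defence peptides. Of 22 such genes written down 4 were on the annotation and all 4 were measured. None passed 2-fold in either direction at 3 h under the main setting, beside 6.11% higher and 3.95% lower among all measured probe sets. Their median log2 ratio at 3 h was 0.01 beside -0.13 for all probe sets. At 24 h against the control 0 were higher and 2 lower, beside 8.57% and 8.48% of all, with a median of -0.84 beside 0.01. The thionin THI2.2, an antimicrobial peptide of another class, was at 59.8 in the cold-acclimated control, 32.2 at 3 h and 7.98, below the floor, at 24 h, so lower at 24 h by at least 3.70-fold against the control. With the floor at the 45th percentile this was no longer past 2-fold (-0.85). The 3 h log2 ratio of THI2.2 against the control was -1.66, past 2-fold lower, with scaling to the hybridization controls. AT2G43550 was at 148.8, 115.8 and 43.6 in time order, a log2 ratio of -1.77 at 24 h against the control. Its 3 h ratio likewise passed 2-fold lower with that scaling (-1.12). AT2G43530 lay within 2-fold throughout (319.4, 453.6 and 338.0). THI2.1, a thionin known to respond to jasmonate, was at 10.3, 21.0 and 18.5 and lay within 2-fold of the floor; it passed 2-fold at 3 h with the floor at the 15th percentile (log2 ratio 1.03). Under the main setting 0 of the 4 passed 2-fold higher against the control at either time, and with 4 genes nothing more is read from this.

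Hormone genes upstream of PDF1.2 were thinly covered. OPCL1, a coenzyme A ligase of jasmonate synthesis, was at 205.4 in the cold-acclimated control, 554.1 at 3 h and 150.9 at 24 h. As for PDF1.2, the 3 h array was the high one, with log2 ratios to the control of 1.43 (3 h) and -0.45 (24 h); with scaling to the hybridization controls the 3 h ratio was 0.67, within 2-fold. It was the only measured member of 18 jasmonate synthesis genes written down, of which 2 were on the annotation; the other, the lipase gene DGL, had a highest signal of 6.37.

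The MYC factors of the jasmonate pathway differed from each other. MYC4 was at 77.6 in the cold-acclimated control, 24.0 at 3 h and 45.1 at 24 h, lowest on the 3 h array where PDF1.2 was highest (log2 ratio -1.69 at 3 h against the control). MYC3 lay within 2-fold at 126.0, 122.5 and 179.1. These were the only 2 of 22 perception and repressor genes on the annotation, and no JAZ gene was among them.

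In the jasmonate response list written around the MYC branch, 4 of 16 genes were measured and 5 were on the annotation. All 4 were at least 2-fold above the control at each time, with medians of 4.10 (3 h) and 2.99 (24 h), where 6.11% and 8.57% of all measured probe sets were higher. This list was written with earlier results for several of these genes known, so its direction is no independent evidence. AT5G05600 was at 47.1 in the cold-acclimated control, 1121 at 3 h and 407.7 at 24 h. AT1G10585 was at 33.0, 778 and 240.5 in the same order, and AT2G38240 at 126.4, 1555 and 886. These 3 were highest at 3 h, as PDF1.2 was, but they remained at least 2-fold above the control at 24 h, where PDF1.2 was at 1.12-fold. JRG21, a jasmonate-regulated gene by name, was at 15.5, below the floor, in the cold-acclimated control, 202.2 at 3 h and 417.6 at 24 h. It was highest at 24 h, as PDF1.4 was, but unlike PDF1.4 it was already at least 12.5-fold above the control at 3 h. AT3G11180 lay below the floor on all 3 arrays, with a highest signal of 15.9.

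On the ethylene side 2 of 25 genes were on the annotation. RTE1, which promotes the activity of an ethylene receptor, was at 27.0 in the cold-acclimated control, 20.2 at 3 h and 92.8 at 24 h. Its high array was the 24 h one, with a log2 ratio of 1.78 there against the control, and as for PDF1.4 the 3 h ratio was within 2-fold (-0.42), except with scaling to the hybridization controls (-1.18). EIN3, the ethylene-stabilised transcription factor, was at 284.9, 353.9 and 542.2 and within 2-fold. Of 24 ERF and TGA factors, AT5G43410 alone was on the annotation, with a highest signal of 8.41. No ERF or TGA activator of PDF1.2 could thus be followed. The osmotin gene OSM34, the 1 gene named among 6 jasmonate and ethylene defence outputs, was below the floor at 8.23 in the cold-acclimated control and 11.6 at 3 h, and was at 36.4 at 24 h, at least 2.25-fold higher. With the floor at the 45th percentile its log2 ratio at 24 h was 0.13.

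Salicylate genes gave 2 of 20 on the annotation. GRX480, a glutaredoxin induced by salicylate whose overexpression is known to lower PDF1.2 expression, was at 46.6 in the cold-acclimated control, 232.5 at 3 h and 54.5 at 24 h. Its log2 ratios to the control, 2.32 for 3 h and 0.23 for 24 h, lay close to the 2.45 and 0.16 of PDF1.2. SAG101, a lipase-like partner in immune signalling, was at 59.0, 167.3 and 63.7 in time order, at 2.83-fold and 1.08-fold of the control, and its 3 h log2 ratio was 0.74 with scaling to the hybridization controls. Neither PDF1.2 nor these genes stayed above the control by 2-fold at 24 h. No gene of the indole defence list was on the annotation.

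Another 5 defence genes were found by name after the arrays had been read. Of the 3 measured at 3 h against the control, 0 passed 2-fold in either direction under the main setting. Among all measured probe sets 6.11% were higher and 3.95% lower there, so with 3 genes nothing is read from this count. The chitinase gene CHI was at 609 in the cold-acclimated control, 482.1 at 3 h and 1058 at 24 h, 2-fold or more above 3 h (log2 ratio 1.13) but within 2-fold of the control (0.80). The class V chitinase ChiC (99.2, 79.6 and 131.6) lay within 2-fold, and PR-1-LIKE reached 21.9 at most. With scaling to the hybridization controls CHI (-1.10) and ChiC (-1.08) passed 2-fold lower at 3 h, and PR-1-LIKE (-0.89) did not. LCR24 and JMT, the methyltransferase that makes methyl jasmonate, lay below the floor with highest signals of 8.62 and 1.45. The 4 measured reference genes lay within 2-fold in all comparisons under the main setting. Their median log2 ratio to the control was -0.17 for 3 h and -0.01 for 24 h. AT4G33380 had the largest difference, 172.4 in the cold-acclimated control and 102.8 at 3 h. Scaling to the hybridization controls turned the median log2 ratios into -0.93 and -0.53. AT4G33380 then passed 2-fold lower at 3 h (-1.51) and at 24 h (-1.09), and AT4G34270 at 3 h (-1.05). The other reference genes stayed within 2-fold of the control.

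**Figure D3:**
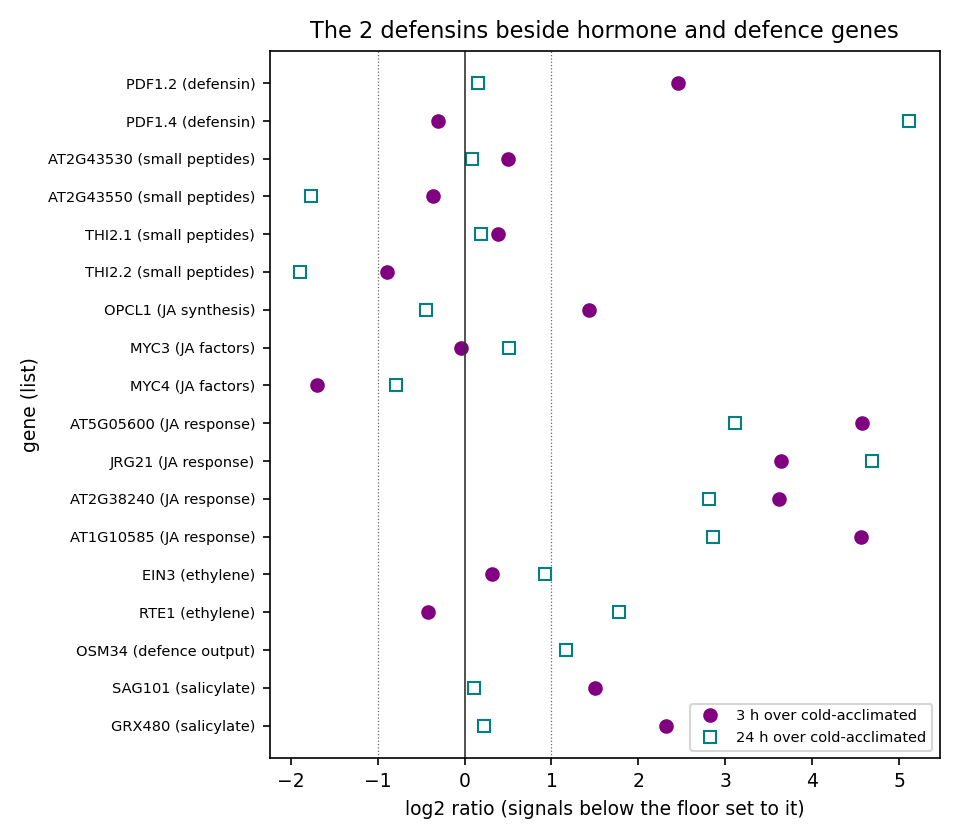
Log2 ratios of PDF1.2, PDF1.4 and the measured genes of 7 lists of hormone and defence genes, with 3 h over cold-acclimated as filled circles and 24 h over cold-acclimated as open squares; dotted lines mark 2-fold and signals below the floor were set to it. The 4 jasmonate response genes lie right of 2-fold at both times, PDF1.2 at 3 h alone and PDF1.4 at 24 h alone; both ratios of a gene share the cold-acclimated array.

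The genes most like each member in pattern were found by the Euclidean distance between their pairs of log2 ratios, 3 h and 24 h each against the control, over 6795 other probe sets of a single gene on these 3 arrays. Such a likeness over 3 arrays says nothing of shared function or control. Nearest to PDF1.2 were AT3G27540 (distance 0.13), GRX480 (0.15), AT4G12000 (0.20), AT5G10750 (0.23) and AT1G18740 (0.25). AT3G27540 was at 78.9 in the cold-acclimated control, 453.1 at 3 h and 94.7 at 24 h, and AT4G12000 at 93.9, 545.9 and 92.8. AT5G10750 was at 57.0, 339.2 and 72.7, and AT1G18740 at 128.1, 715.6 and 170.1. All 5 stood high on the 3 h array alone.

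PDF1.4 had no neighbour as close. Its nearest genes were AT4G27450 (distance 0.67), AT2G20670 (1.04), AT2G05540 (1.06), AT1G25230 (1.16) and AT5G40450 (1.23). AT4G27450 was at 32.8 in the cold-acclimated control, 42.0 at 3 h and 1174 at 24 h, and AT2G05540 at 37.0, 53.0 and 813. AT2G20670 was at 38.1, 4.38 and 956, its 3 h value lying below the floor. AT1G25230 was at 22.7, 24.3 and 371.3, and AT5G40450 at 49.0, 44.7 and 731. All 5 stood high on the 24 h array alone, and their log2 ratios at 24 h against the control ran from 3.90 to 5.16, where PDF1.4 had 5.12.

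**Figure D4:**
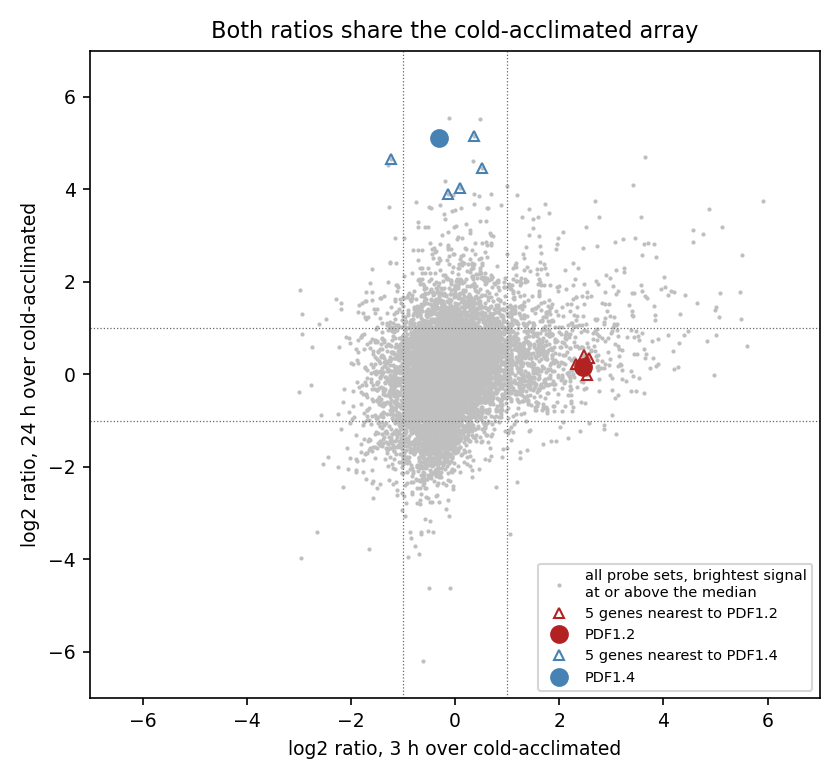
Each point is a probe set whose brightest signal is at or above the median, with its log2 ratio at 3 h over cold-acclimated on the horizontal axis and at 24 h over cold-acclimated on the vertical axis; dotted lines mark 2-fold. PDF1.2 (2.45, 0.16) lies with its 5 nearest genes on the right near zero height, and PDF1.4 (-0.31, 5.12) lies with its 5 near the top, more widely spaced.

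Genes beside the defensins on the chromosome were compared last. These were looked at because defensin copies lie in tandem, and were chosen after the members' values were known. Of the 5 protein-coding genes on each side of PDF1.2 in RefSeq's order, 8 of 10 had a named probe set and 6 were measured. None passed 2-fold at 3 h against the control once dim signals were set to the floor. Among all measured probe sets 6.11% were higher and 3.95% lower there. For AT5G44380 and AT5G44410, below the floor at 3 h, the floor gives only a bound, at least 1.80-fold and at least 1.87-fold lower. AT5G44380 (29.1 in the cold-acclimated control, 7.45 at 3 h and 89.0 at 24 h) and AT5G44400 (381.7, 391.6 and 144.8) were past 2-fold at 24 h, in opposite directions. Of all measured probe sets 8.57% were higher and 8.48% lower at 24 h against the control. With so few genes, nothing is read from these counts about the region. Around PDF1.4, 4 of 10 had a named probe set and 2 were measured. AT1G19600, directly beside it, was at 141.1 in the cold-acclimated control, 100.4 at 3 h and 218.0 at 24 h, within 2-fold of the control at both times and 2.17-fold higher at 24 h than at 3 h. AT1G19650 was at 8.22, below the floor, in the cold-acclimated control, 39.1 at 3 h and 40.0 at 24 h.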

How the data were processed

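The 3 arrays measured total RNA of aerial parts, 1 array per group; titles give each the replicate number 3. What the authors deposited is 1 linear intensity per probe set and array; the submitters' processing notes name MAS5, without version or settings. Here each array was multiplied to a 2% trimmed mean of 100, signals below the 30th percentile (16.2) were set to it, and log2 ratios were taken. No test was possible with 1 array per group; the number of arrays limits precision. Genes were named from the platform's annotation (1 gene for 13513 probe sets, several for 503, none for 8730), with symbols from RefSeq (TAIR10.1). The members and the 17 lists (225 places, 37 on the annotation) were chosen with earlier results of these data known. A gene is represented by its brightest probe set, and a list by its counts and, from 3 measured members, its median. Genes named were the members, measured defensins, the 2 largest ratios per list and comparison, and the 5 genes nearest each member, among probe sets of 1 gene that do not cross-hybridize and reach 41.7; the genes beside the members on the chromosome and the other genes of short lists were named after their values were seen. Alternatives were 6 scalings, 3 treatments of low values and leaving out cross-hybridizing probe sets. The functions were tested on simulated data. Calculations used Python 3.11.15 with numpy 2.4.6, pandas 2.3.3, statsmodels 0.14.6 and matplotlib 3.10.9.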

Additional observations from a re-analysis of the deposited data

Results flagged for a closer look

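A few of the platform's control probe sets, which entered no comparison, were brighter in recovery than in the cold-acclimated control by 2-fold or more. That for 25S ribosomal RNA was at 5.42-fold at 24 h, the 5′ ubiquitin probe set 2.08-fold higher at 3 h, and the middle ubiquitin probe set 2.15-fold higher at 24 h. Their part in the defensin values was not tested. Only rises over the cold-acclimated array were looked for among the control probe sets, so falls are not given.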

How the results depend on the processing

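Across 9 alternatives, PDF1.2 kept a log2 ratio past 2-fold at 3 h against the control (1.69 to 2.62) and at 24 h against 3 h (-2.45 to -2.05), and PDF1.4 at 24 h against the control (4.49 to 5.26) and against 3 h (4.68 to 5.67). Scaling to the hybridization controls gave 1.69 and -0.36 for PDF1.2 and -1.07 and 4.60 for PDF1.4 at 3 h and 24 h against the control. With the floor at the 45th percentile PDF1.4 was at 4.89 for 24 h against 3 h and the gap between the genes at 7.19, and the 3 h ratio of PDF1.4 has no value. With a pseudocount PDF1.4 was at 4.49 against the control and 4.68 against 3 h, and the gaps were 4.34 and 6.95, since a pseudocount shrinks ratios of dim signals.

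Of 60 recomputed counts of probe sets 12 moved by over 1.5 times. At least 2-fold higher and lower were 1024 and 663 at 3 h and 1453 and 1438 at 24 h against the control, against 439 and 6274, and 672 and 3867, with scaling to the hybridization controls, and 1659 and 1446, and 2234 and 2196, with the floor at the 15th percentile. Lower at 3 h were 422 with reference gene scaling, 392 with a pseudocount and 403 with the floor at the 45th percentile. Lower at 24 h than at 3 h were 2259, against 1471, with the floor at the 15th percentile. Of the 2-fold differences at 3 h against the control 60.7% were higher, 73.1% after loess, 74.8% with reference gene scaling and 6.54% with hybridization control scaling; that scaling gave 14.8%, against 50.3%, for 24 h and 72.4%, against 55.2%, for 24 h over 3 h, where reference gene scaling gave 42.6%. Of 126 recomputed list medians 20 moved by more than the probe-set SD. For signals above the floor, scaling to the hybridization controls lowers log2 ratios to the control by 0.76 (3 h) and 0.52 (24 h). These shifts exceed the SDs of 0.33 and 0.40. The cause of the moves under other settings was not tested. No paired analysis was possible because each group held 1 array. Leaving out an array was not possible for the same reason.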
